A study of Mus musculus with 8 samples.

Results

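The 10 genes described here are neuroectoderm and neural-associated genes: the transcription factors Bcl11a, Insm1, Pax6, Sox1 and Lhx2, the Notch effector Hes5, the RNA-binding protein Msi1, the intermediate filament Nes, the adhesion molecule Ncam1 and the receptor Cnr1. They were taken by symbol from a table of read counts for 36255 mouse genes, in which all 10 have a row. 9 of them had enough reads to enter the statistical model, which covered 16542 genes, and Hes5 did not. The members were chosen with results of the same libraries in view, among them the falls of Bcl11a, Insm1 and Cnr1 in knockout embryoid bodies. Differences that involve embryoid bodies are therefore given for the members as descriptions, with no test.

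Poly(A)-selected RNA was sequenced from mouse embryonic stem (ES) cells and, after 2 days, from embryoid bodies (EBd2), the aggregates in which ES cells start to differentiate. Per the sample titles, libraries carried floxed Skp1a (fl/fl) or were Skp1a knockouts (KO). Skp1a encodes the adaptor that joins F-box proteins to the cullin of SCF ubiquitin ligases. Each of the 4 groups held 2 libraries: fl/fl ES cells of lots 1 and 2, KO ES cells of lots 1 and 12, fl/fl EBd2 of lots 1 and 12 and KO EBd2 of lots 1 and 2. The sources used here do not say what a lot is, how Skp1a was deleted or how many clones were used, so p values measure only how far these libraries differ among themselves, and that spread may be technical. The tissue field of the labels contradicts the titles (all KO libraries are called ES cells there and all fl/fl libraries embryoid bodies), and groups follow the titles. All cells grew in standard ES or EB medium, and the series is titled for the turnover of the Polycomb complex PRC2.

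As background, neural fate is often described as the path that epiblast cells take when signals for mesoderm and endoderm are low. SOX1 and PAX6 are classical early markers of the neural plate, HES5 is switched on by Notch in neural progenitors, and nestin (Nes) and Musashi-1 (Msi1) mark those progenitors. None of these markers is fully private to neural cells: nestin and NCAM1 also occur in mesoderm-derived cells, and several members are read at a low level in ES cells. Many developmental regulators of this kind have CpG-rich promoters, the kind of sequence on which Polycomb complexes act in ES cells.

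The stretches just before annotated starts are shown for the 4 members with an entry that differed over 3-fold between genotypes at day 2, in either direction, and for the Notch effector. RefSeq sequences of build GRCm38.p6 held 7 of the 10 members (11 starts). Of these 11 windows of 250 bases, 10 had more CpG dinucleotides than the median of 6 over 32851 windows of all genes. The exception was a further Cnr1 window (chr4:33926130-33926379, +), with 5 CpG, which is not printed. Windows of a further Lhx2 start and a further Pax6 start lay wholly in annotated exons. Capitals mark each CpG in the first 4 lines, which are Bcl11a (chr11:24080445-24080669, + strand), Cnr1 (chr4:33924014-33924263, +), Pax6 (chr2:105668646-105668895, +) and Lhx2 (chr2:38339031-38339280, +). The Bcl11a window lies inside the GENCODE gene, which starts at 24078056. The last 25 bases of the Bcl11a window lie in an annotated exon and are left out, which leaves 225. The RefSeq start behind the Cnr1 window lies upstream of the GENCODE gene. In Hes5 (chr4:154960673-154960922, +) capitals mark both matches to TGGGAA on either strand, the core letters bound by RBPJ, the DNA-binding partner of Notch.
Bcl11a: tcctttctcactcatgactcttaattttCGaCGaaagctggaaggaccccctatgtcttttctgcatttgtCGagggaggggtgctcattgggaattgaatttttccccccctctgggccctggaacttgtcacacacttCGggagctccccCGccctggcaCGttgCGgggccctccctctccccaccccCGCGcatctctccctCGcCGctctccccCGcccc
Cnr1: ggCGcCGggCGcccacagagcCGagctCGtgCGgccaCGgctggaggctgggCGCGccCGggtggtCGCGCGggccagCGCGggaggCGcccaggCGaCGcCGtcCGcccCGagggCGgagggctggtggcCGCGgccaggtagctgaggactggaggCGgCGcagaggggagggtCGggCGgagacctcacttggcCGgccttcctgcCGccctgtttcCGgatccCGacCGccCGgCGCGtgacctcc
Pax6: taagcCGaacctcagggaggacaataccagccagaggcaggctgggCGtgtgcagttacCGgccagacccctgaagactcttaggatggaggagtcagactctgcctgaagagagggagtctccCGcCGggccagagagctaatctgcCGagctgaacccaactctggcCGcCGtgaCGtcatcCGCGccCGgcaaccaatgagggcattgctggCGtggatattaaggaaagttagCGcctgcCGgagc
Lhx2: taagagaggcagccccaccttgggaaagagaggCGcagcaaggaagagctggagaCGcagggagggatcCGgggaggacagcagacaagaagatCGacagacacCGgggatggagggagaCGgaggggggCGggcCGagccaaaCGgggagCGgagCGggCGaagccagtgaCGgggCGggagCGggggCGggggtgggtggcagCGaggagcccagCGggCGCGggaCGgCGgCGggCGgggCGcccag
Hes5: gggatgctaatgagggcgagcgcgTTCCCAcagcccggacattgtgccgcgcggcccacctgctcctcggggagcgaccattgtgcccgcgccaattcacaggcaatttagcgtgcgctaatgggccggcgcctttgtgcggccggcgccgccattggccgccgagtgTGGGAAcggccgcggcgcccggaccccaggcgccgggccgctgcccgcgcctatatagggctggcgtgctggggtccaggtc
The printed windows hold 12 CpG in Bcl11a, 36 in Cnr1, 15 in Pax6 and 25 in Lhx2, so Lhx2, which was higher in KO embryoid bodies, and the other 3, which were lower, were all above that median. The printed Bcl11a and Lhx2 windows also hold 1 match each to TGGGAA, and those of Cnr1 and Pax6 hold 0. The Cnr1 window with 5 CpG, not printed, holds 1 match, so these counts depend on the start chosen. At least 1 match is in 21.6% of all windows of 250 bases. No protein binding was measured, and a match describes letters only.

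Depth and the checks of the labels are as follows. Total counts ran from 21545868 to 23343471 in the 4 ES cell libraries and from 7858452 to 10055667 in the 4 EBd2 libraries. Levels are given as CPM, counts divided by the library's total times its TMM scaling factor and put on a common scale, with 2 libraries per group and errors as SD unless said otherwise. Skp1a itself stood at 425.2 ± 7.19 CPM (fl/fl ES), 365.1 ± 5.35 CPM (KO ES), 395.3 ± 8.74 CPM (fl/fl EBd2) and 287.7 ± 2.67 CPM (KO EBd2). Most of its reads were thus present in libraries labelled KO, and counts per gene cannot show a deleted exon. The epiblast gene Fgf5 separated the stages in both genotypes, at 0.538 and 0.585 CPM in fl/fl and KO ES cells against 55.7 and 20.3 CPM in EBd2. The mitochondrial share of reads was 1.73% and 1.76% (fl/fl ES), 2.42% and 2.43% (KO ES), 2.28% and 2.7% (fl/fl EBd2) and 3.15% and 3.24% (KO EBd2), so KO libraries were higher at both stages. Their part in any result below was not tested.

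4 of the 9 members measured well enough were induced in fl/fl embryoid bodies and lost in KO embryoid bodies: Bcl11a, Insm1, Pax6 and Cnr1. The definition asked for a level at least 2-fold higher in fl/fl EBd2 than in fl/fl ES cells and at least 2-fold lower in KO than in fl/fl EBd2, with no overlap of libraries. In bulk RNA, fewer cells that express a gene and less RNA per cell cannot be told apart, here or below. Over all genes tested the same definition held for 2.37%, and since the members were picked with this contrast in view nothing is read from the difference. The mirror pattern, a fall in fl/fl and a higher level in KO EBd2, held for 6.14% of genes and for 0 members. Taken singly at the same 2-fold limit, 4 members were higher in fl/fl EBd2 than in fl/fl ES cells (8.51% of all genes) and Ncam1 was lower (11.4%). Between genotypes at day 2, 6 members were lower in KO (7.06%) and Lhx2 was higher (16.7%). With stage in KO, Lhx2 was higher (12.6%), and Insm1, Msi1, Sox1 and Ncam1 were lower (8.97%). Pax6 was the closest inside the first limit, at a log2 change of 1.69, and Nes the closest outside, at 0.66. Sox1 was the closest inside the limit on KO embryoid bodies, at -1.57, and Nes again the closest outside, at -0.09. The other 5 genes in the model did something else: Msi1 and Sox1 were lower in KO embryoid bodies without having risen in fl/fl, Lhx2 was higher in KO, and Nes and Ncam1 were nearly equal between genotypes at day 2.

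**Figure D1:**
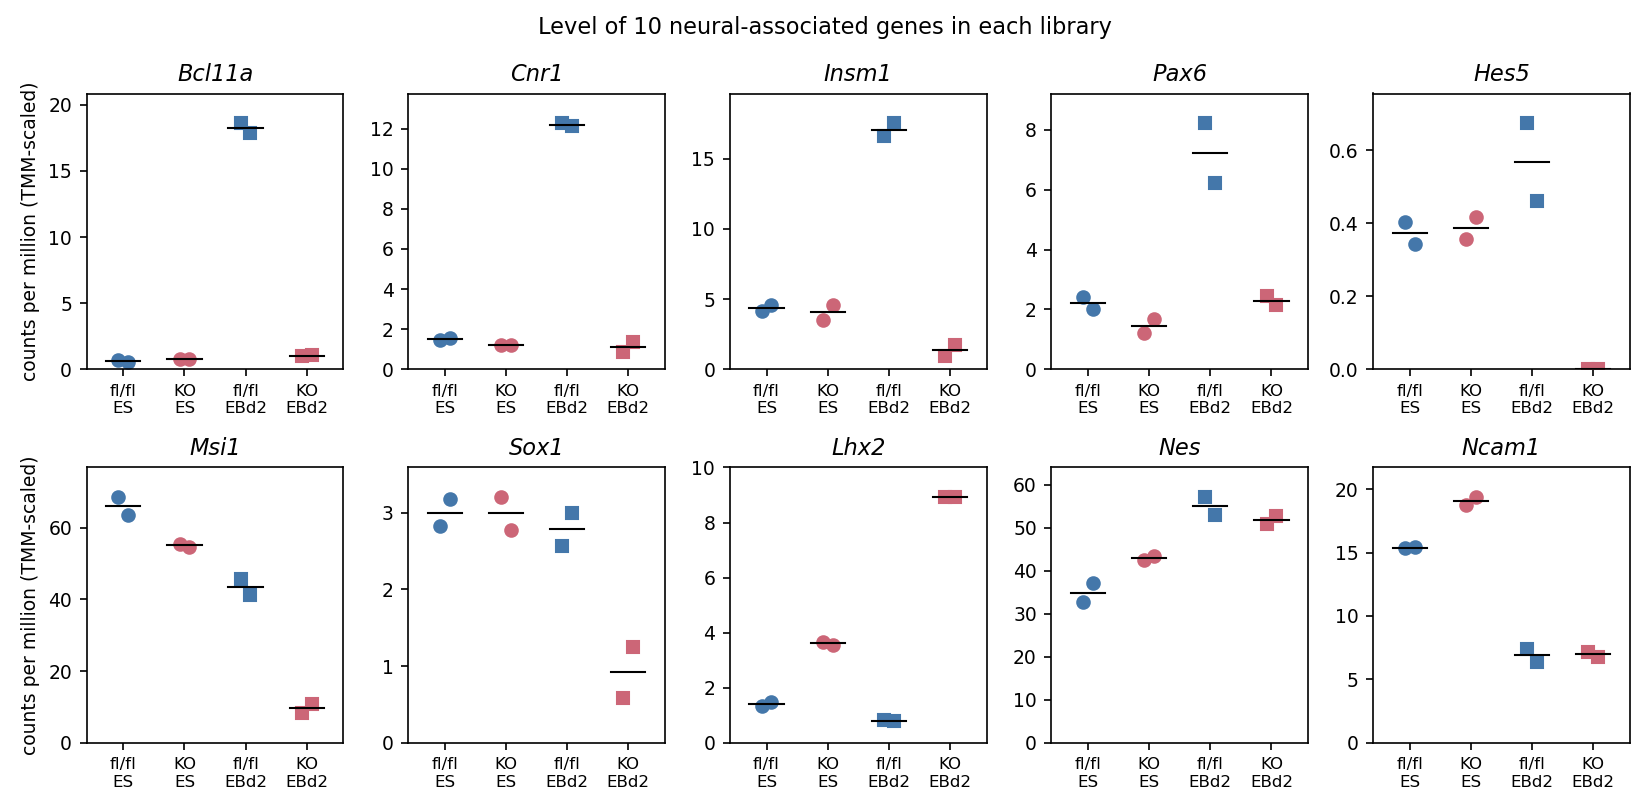
Level of each member in each library, in CPM on axes that start at 0; points are libraries (circles ES cells, squares EBd2, blue fl/fl, red KO) and black lines are means of 2. Bcl11a, Cnr1, Insm1 and Pax6 stand out in fl/fl EBd2, Lhx2 in KO EBd2, and Hes5 has no read in KO EBd2.

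Among the transcription factors, Bcl11a had the widest swing. BCL11A is a zinc finger repressor of developing neurons and of blood cells, and the gene lies on chromosome 11 at 24078056 to 24174123 (+ strand, GRCm38). Its level was 0.719 and 0.537 CPM (fl/fl ES), 0.758 and 0.742 CPM (KO ES), 18.6 and 17.9 CPM (fl/fl EBd2) and 0.98 and 1.07 CPM (KO EBd2). The fl/fl EBd2 libraries were the only high ones, and the other 6 lay at or near 1 CPM. The log2 change with stage was 4.84 ± 0.21 (SE) in fl/fl and 0.45 ± 0.31 in KO, and KO EBd2 stood at 5.68% of fl/fl EBd2 (-4.14 ± 0.22). Only 27 and 33 reads in all lay behind the fl/fl and KO ES cell values, so the rise in fl/fl carries a 95% counting interval of 19.4-fold to 44.5-fold.

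Insm1 encodes a zinc finger factor of newborn neurons and endocrine cells (chromosome 2, 146221921 to 146225020, +). It was read at 4.13 and 4.54 CPM (fl/fl ES), 3.52 and 4.59 CPM (KO ES), 16.6 and 17.5 CPM (fl/fl EBd2) and 0.98 and 1.7 CPM (KO EBd2). KO embryoid bodies lay below both ES cell groups as well as below fl/fl embryoid bodies. The stage change was 1.98 ± 0.16 in fl/fl and -1.57 ± 0.26 in KO, and KO EBd2 stood at 7.97% of fl/fl EBd2.

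Pax6, a paired-box and homeobox factor of the neural plate and the eye (chromosome 2, 105668900 to 105697364, +), swung less. Levels were 2.43 and 2 CPM (fl/fl ES), 1.2 and 1.67 CPM (KO ES), 8.23 and 6.23 CPM (fl/fl EBd2) and 2.45 and 2.15 CPM (KO EBd2). The fl/fl EBd2 libraries again did not overlap any other group. Pax6 was also higher at day 2 in KO cells, but by less (0.67 ± 0.29 against 1.69 ± 0.24), which left KO EBd2 at 32% of fl/fl EBd2 (-1.65 ± 0.26).

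Sox1, an HMG-box factor that is among the earliest markers of neural commitment (chromosome 8, 12395295 to 12400126, +), did not mark fl/fl embryoid bodies. It was at 2.83 and 3.18 CPM (fl/fl ES), 3.21 and 2.78 CPM (KO ES) and 2.56 and 3 CPM (fl/fl EBd2), 3 groups that overlap. In KO EBd2 it was at 0.588 and 1.25 CPM, from 6 and 14 reads, below every other library. KO EBd2 thus held 33.6% of the fl/fl EBd2 level (-1.57 ± 0.36). That value rests on few reads, and it was -2.24 when KO EBd2 lot 2 was left out and -1.16 when KO EBd2 lot 1 was. The stage change of Sox1 in KO, -1.68 ± 0.31, was -2.34 and -1.26 in the same cases.

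Lhx2 went the opposite way. LHX2 is a LIM-homeobox factor of the forebrain, eye field, limb and skin (chromosome 2, 38339281 to 38369733, +). Its level was 1.35 and 1.47 CPM (fl/fl ES), 3.66 and 3.57 CPM (KO ES), 0.81 and 0.808 CPM (fl/fl EBd2) and 8.92 and 8.94 CPM (KO EBd2). KO libraries were above fl/fl libraries at both stages, and KO EBd2 was the highest group. KO EBd2 exceeded fl/fl EBd2 by 3.45 ± 0.24 on the log2 scale, and the stage change in KO was 1.30 ± 0.15. The lower level of fl/fl EBd2 against fl/fl ES cells (-0.79 ± 0.30) rests on 13 reads. The ratio has a 95% counting interval of 0.29 to 1.06. The log2 change turned to 0.13 in a single random thinning of libraries to one depth.

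Hes5, the Notch-induced repressor that keeps neural progenitors from differentiating (chromosome 4, 154960923 to 154962371, +), was barely read anywhere. It had 9 and 7 counts (fl/fl ES), 8 and 9 (KO ES), 5 and 4 (fl/fl EBd2) and 0 and 0 (KO EBd2). Against a floor of 3 counts over both KO libraries, and with the other group's counts taken as exact, Hes5 was at least 3.99-fold lower in KO than in fl/fl EBd2 and at least 2.75-fold lower than in KO ES cells. Counting error in both groups widens this, and the 95% intervals of these ratios reached up to 0.381 and 0.499. For the stage change in fl/fl, 9 against 16 counts gives a ratio of 1.5 with a 95% counting interval from 0.582 to 3.59, so no rise could be detected at this depth. Such intervals cover counting error only.

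Msi1 encodes an RNA-binding protein that represses translation in neural stem cells (chromosome 5, 115429599 to 115455698, +), and it was already well read in ES cells. Levels were 68.6 and 63.6 CPM (fl/fl ES), 55.4 and 54.6 CPM (KO ES), 45.6 and 41.1 CPM (fl/fl EBd2) and 8.43 and 10.8 CPM (KO EBd2). The 4 groups did not overlap, and KO EBd2 was far below the other 3. Msi1 changed by -0.61 ± 0.08 with stage in fl/fl and by -2.51 ± 0.10 in KO, so that KO EBd2 held 22.4% of the fl/fl EBd2 level (-2.16 ± 0.11). It was low in KO embryoid bodies without having been induced in fl/fl ones.

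Nes and Ncam1 showed no loss. Nestin, the intermediate filament of neural progenitors (chromosome 3, 87971078 to 87980451, +), was at 32.7 and 37 CPM (fl/fl ES), 42.5 and 43.3 CPM (KO ES), 57.2 and 53 CPM (fl/fl EBd2) and 50.8 and 52.6 CPM (KO EBd2). It was higher at day 2 in both genotypes, by 0.66 ± 0.07 in fl/fl and 0.27 ± 0.07 in KO, and the day 2 groups were only just apart (-0.09 ± 0.07). The sign of that last difference depends on the scaling: with library sizes only it was 0.14. Ncam1, an adhesion molecule of neurons and of some muscle and mesodermal cells (chromosome 9, 49502136 to 49798925, - strand), was at 15.4 and 15.4 CPM (fl/fl ES), 18.8 and 19.4 CPM (KO ES), 7.42 and 6.35 CPM (fl/fl EBd2) and 7.15 and 6.8 CPM (KO EBd2). The day 2 groups overlap. Its stage change was -1.17 ± 0.11 in fl/fl and -1.45 ± 0.10 in KO.

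Cnr1 encodes the CB1 cannabinoid receptor, a G protein-coupled receptor of neurons (chromosome 4, 33924593 to 33948831, +). It stood at 1.44 and 1.56 CPM (fl/fl ES), 1.2 and 1.2 CPM (KO ES), 12.3 and 12.1 CPM (fl/fl EBd2) and 0.882 and 1.34 CPM (KO EBd2). As for Bcl11a, fl/fl EBd2 was high and the other 3 groups were alike in size. The stage change was 3.02 ± 0.20 in fl/fl and -0.10 ± 0.29 in KO, and KO EBd2 held 9.25% of the fl/fl EBd2 level (-3.43 ± 0.24).

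**Figure D2:**
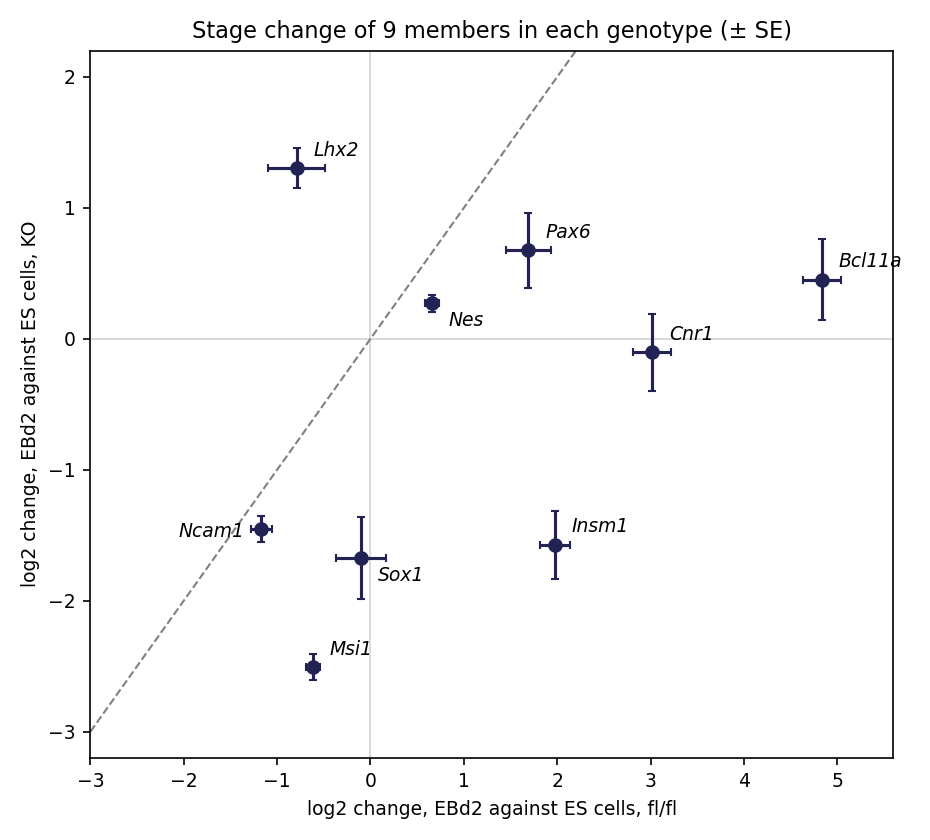
Log2 change from ES cells to EBd2 in fl/fl (horizontal) against KO (vertical) for the 9 members in the model. Bars are ± SE, derived from the F statistic of the edgeR fit, and a dashed line shows where both would be equal. Bcl11a, Cnr1 and Insm1 lie far below the line (4.84, 3.02 and 1.98 in fl/fl against 0.45, -0.10 and -1.57 in KO), Ncam1 lies near it, and Lhx2 lies above it.

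Within lot 1 alone, which supplied 1 library to each group, the KO against fl/fl log2 difference in EBd2 was -4.25 for Bcl11a, -4.08 for Insm1, -3.80 for Cnr1, -1.75 for Pax6, -2.44 for Msi1 and 3.46 for Lhx2. Those 6 directions were as in all libraries, in a comparison chosen after seeing the data. For these 6 the EBd2 libraries of the genotypes did not overlap, so no pair of libraries could give another direction. Nothing is read from it. Ncam1, whose day 2 groups overlap, was at -0.05 in lot 1 and at 0.03 in all libraries.

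KO against fl/fl in ES cells is the contrast that did not enter the choice of members, although the fl/fl ES libraries also serve as the base of the fl/fl rise. Of the 9 members, 3 were higher and 1 was lower by edgeR's quasi-likelihood test at an adjusted p under 0.05. Of all 16542 genes 23.7% were called in this contrast (10.9% higher and 12.8% lower). Lhx2 was the only member changed at least 2-fold without overlap, as 2.78% of genes were upwards and 0.78% downwards. It was 1.36 ± 0.18 higher in KO ES cells (edgeR adjusted p = 0.000451), with both KO libraries above both fl/fl libraries. The call held in all 17 alternative fits, 1 of them by DESeq2 and the rest by edgeR, with adjusted p from 1.03e-07 to 0.00816, and the value was 2.22 after thinning to one depth.

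The other calls in ES cells were small. Nes was higher by 0.30 ± 0.06 (adjusted p = 0.00627 by edgeR), a call lost without the fl/fl library of lot 1 (0.0735). Ncam1 was higher by 0.31 ± 0.08 (edgeR adjusted p = 0.0124), a call lost by DESeq2 (0.143), with lots as blocks (0.116), after thinning (0.19) and when fl/fl lot 1 (0.0814), fl/fl lot 2 (0.0723) or KO lot 12 (0.0857) was left out. Msi1 fell by 0.27 on the log2 scale, with SE 0.06 (edgeR adjusted p = 0.00977), a call lost with lots as blocks (0.0717) and when fl/fl lot 1 (0.118), KO lot 1 (0.0529) or KO lot 12 (0.0655) was left out. Pax6 stood at -0.63 ± 0.26 and missed the threshold (edgeR adjusted p = 0.101). Values for Cnr1 (-0.31 ± 0.24), Bcl11a (0.25 ± 0.29), Insm1 (-0.10 ± 0.17) and Sox1 (0.00 ± 0.23) missed it too, with adjusted p of 0.412 or more.

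Compared per length, in CPM per kilobase of annotated exon, the members spanned a wide range. In fl/fl EBd2 the order was Nes (8.59 ± 0.469), Msi1 (7.47 ± 0.552), Insm1 (5.51 ± 0.215), Cnr1 (1.89 ± 0.018), Bcl11a (1.39 ± 0.0395), Ncam1 (0.795 ± 0.0878), Pax6 (0.618 ± 0.121), Sox1 (0.576 ± 0.0638), Hes5 (0.417 ± 0.111) and Lhx2 (0.184 ± 0.00031). Only the neighbours Pax6 and Sox1 overlapped between libraries. In KO EBd2 the order was Nes (8.05 ± 0.202), Lhx2 (2.03 ± 0.00437), Msi1 (1.66 ± 0.292), Ncam1 (0.805 ± 0.029), Insm1 (0.432 ± 0.164), Pax6 (0.197 ± 0.0183), Sox1 (0.19 ± 0.0972), Cnr1 (0.173 ± 0.0504) and Bcl11a (0.0779 ± 0.00501), with Hes5 at 0 counts. Pax6, Sox1 and Cnr1 could not be ordered there. Lhx2 thus went from the last place to the second, while Insm1, Cnr1 and Bcl11a lost rank to Ncam1. Exon lengths come from GENCODE and may differ from the annotation used for counting. Exons of Bcl11a, Hes5, Ncam1 and Sox1 overlap those of other annotated genes not used here. For Bcl11a, Hes5 and Ncam1 these lie on the opposite strand, and without a stated strand setting reads of such pairs cannot be told apart. For Sox1 it is a miRNA gene on the same strand, which a strand setting would not separate.

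The likeness of patterns was measured as the root mean square difference between log2 profiles centred on their mean over the 8 libraries, against 11486 other genes. The 3 genes nearest to Cnr1 were the epiblast and forebrain factor Otx2 (0.219), the transcription elongation factor Aff3 (0.311) and Clca4a (0.33). Otx2 was at 10.7 and 9.64 CPM in fl/fl and KO ES cells, and at 88.8 and 9.52 CPM in fl/fl and KO EBd2. Nearest to Bcl11a were Clca4a (0.442), the zinc finger factor Zic2 (0.494) and Zfp608 (0.516). Insm1 was closest to carbonic anhydrase Car14 (0.3), the chromatin organizer Satb1 (0.302) and the transcription factor Myb (0.325), which like Insm1 were lower in KO EBd2 than in ES cells of either genotype. Myb, for example, was at 22.1, 21.1, 83.9 and 8.84 CPM in fl/fl ES cells, KO ES cells, fl/fl EBd2 and KO EBd2. Aff3, near Cnr1, was also lower in KO EBd2 (5.97 CPM) than in fl/fl and KO ES cells (10.1 and 8.67 CPM).

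**Figure D3:**
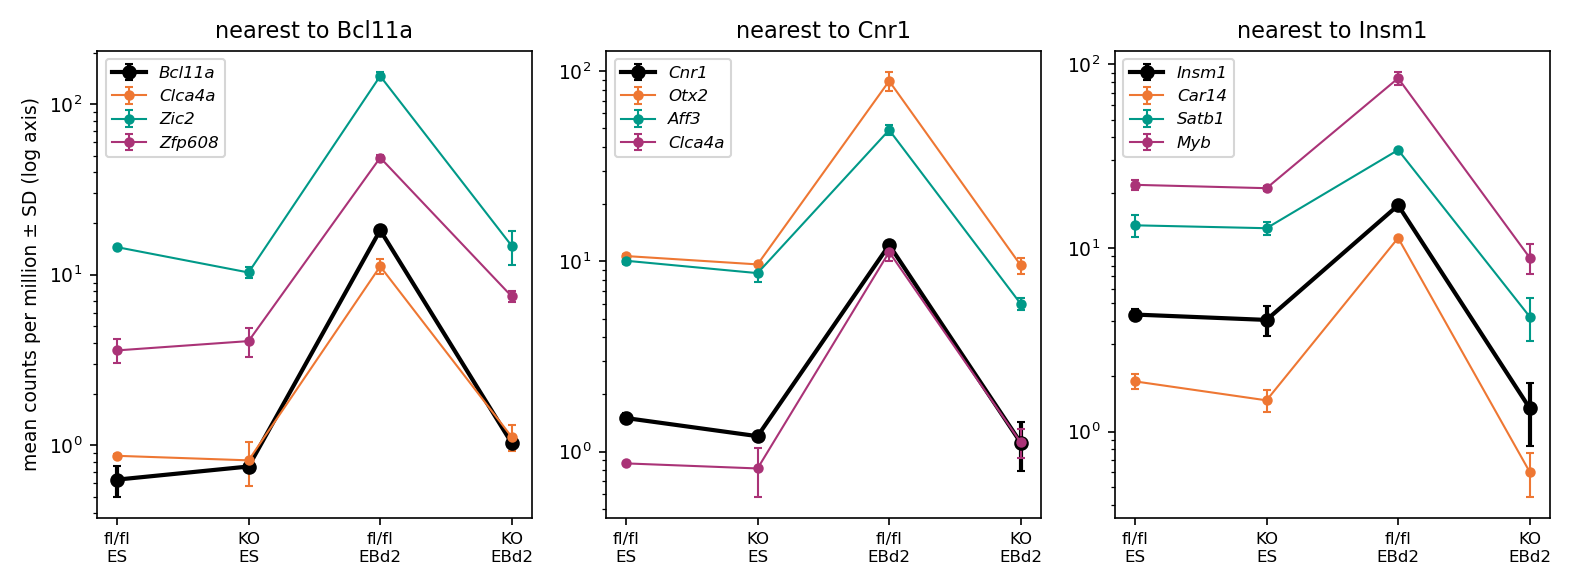
Mean CPM ± SD of 2 libraries in the 4 groups, on a log axis, for Bcl11a, Cnr1 and Insm1 (black) and the 3 genes nearest to each by centred log2 profile. All 12 lines peak in fl/fl EBd2. In KO EBd2 those around Insm1 drop below their ES cell levels, as does Aff3 near Cnr1. The means of Cnr1 and Otx2 lie slightly below theirs.

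Pax6 was closest to the ETS factor Etv1 (0.186), the chromatin protein Jade2 (0.2) and Gstt2 (0.202), Msi1 to Tesmin (0.15), Nexn (0.211) and Fam131c (0.245), and Sox1 to Rgs11 (0.185), Coq3 (0.193) and Fam199x (0.204). Among the genes nearest to Lhx2 were the costimulatory ligand Cd80 (0.199) and the imprinted zinc finger gene Plagl1 (0.253). Plagl1 was at 9.85 and 17.6 CPM in fl/fl and KO ES cells and at 6.08 and 65.6 CPM in fl/fl and KO EBd2. Nes was nearest to Ahsa2 (0.0492), Zfp944 (0.0596) and Lpcat4 (0.0675), and Ncam1 to Ttyh2 (0.0957), Mipol1 (0.129) and Cacng6 (0.141). Among the members themselves the closest pair was Msi1 and Sox1 (0.458), followed by Insm1 and Cnr1 (0.617) and Bcl11a and Cnr1 (0.646). The pair furthest apart was Lhx2 and Bcl11a (2.83). This measure also counts the size of a swing. By Pearson correlation, which does not, the highest pair was Bcl11a and Cnr1 (0.97) and the lowest Lhx2 and Insm1 (-0.911). All of these profiles share the same 8 libraries in 4 groups.

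Other neural genes went both ways. A list of 87 of them in 5 role groups had 63 genes in the model. Zic2, Otx2 and Pou3f1 were kept out of it because their falls in KO EBd2 were already known. Zic2 stood at 146.3 and 14.7 CPM, Otx2 at 88.8 and 9.52 CPM and Pou3f1 at 130.4 and 18.7 CPM in fl/fl and KO EBd2. In KO against fl/fl EBd2, 26 were higher and 21 lower by the edgeR test, which is 41.3% and 33.3%, beside 30.7% and 31.5% of all genes (62.2% either way). Their median log2 change was 0.27, against 0.00 over all genes. A stricter filter, which tests fewer genes, left 17 higher. In ES cells 14 were higher and 4 lower in KO (22.2% and 6.35%), beside 10.9% and 12.8% of all genes. With lots as blocks the counts were 8 and 2. In fl/fl, 23 rose and 19 fell with stage (28.9% and 30.1% of all genes, 59% either way), and in KO 22 rose and 23 fell (31.7% and 33.1% of all genes, 64.8% either way). The 19 became 11 when fl/fl EBd2 lot 1 was left out and 12 when lot 12 was. With library sizes only the split in KO became 25 and 17. The difference between the stage changes of the genotypes, tested as an interaction, was called with the KO change the higher in 15 genes and the lower in 21 (22.4% and 25.7% of all genes, 48% either way).

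Of the neural plate and regional transcription factors, 10 of 22 were higher and 7 lower in KO than in fl/fl EBd2. Of all genes, 30.7% were higher and 31.5% lower in this contrast, shares that also apply to the EBd2 counts of the other role groups. The largest rises were in Meis2 (3.39 ± 0.26, edgeR adjusted p = 5.17e-07), a TALE homeobox factor, and Gbx2 (2.45 ± 0.11, edgeR adjusted p = 6.25e-09), a homeobox factor of the anterior hindbrain. Meis2 was at 0.857 ± 0.257 CPM (fl/fl EBd2) and 9.18 ± 0.46 CPM (KO EBd2). The largest falls were in Zic5 (-3.11 ± 0.08, edgeR adjusted p = 2.14e-10), a zinc finger factor of the dorsal neural tube, and Sox3 (-1.85 ± 0.18, edgeR adjusted p = 4.08e-06), the nearest relative of Sox1 with Sox2. Zic5 was at 116.4 ± 3.27 CPM (fl/fl EBd2) and 13.5 ± 2.26 CPM (KO EBd2), against 38.4 and 31.4 CPM (fl/fl and KO ES). It rose with stage in fl/fl (1.60 ± 0.06) and fell with stage in KO (-1.22 ± 0.09). Sox3 rose in both genotypes, by 2.70 ± 0.18 in fl/fl and 1.30 ± 0.22 in KO.

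Among proneural and neuronal differentiation regulators only 5 of 15 could be modelled, of which 3 were lower and 1 higher in KO EBd2. Hes6, an inhibitor of Hes proteins that promotes differentiation, stood at 81.7 ± 2.15 CPM (fl/fl EBd2) and 19.1 ± 2.14 CPM (KO EBd2) (-2.10 ± 0.09, edgeR adjusted p = 6.25e-09). It had risen by 1.82 ± 0.08 in fl/fl. The neuronal RNA-binding gene Elavl4 fell as well (-2.12 ± 0.44, edgeR adjusted p = 0.00143). The rise called in Neurod1 (0.29 ± 0.12, edgeR adjusted p = 0.0475) was lost in 11 of 17 alternative fits.

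Notch pathway and progenitor genes split into 5 higher and 7 lower of 14 in KO EBd2. The receptor phosphatase gene Ptprz1 (1.89 ± 0.29, edgeR adjusted p = 0.000141) and vimentin, Vim (1.69 ± 0.06, edgeR adjusted p = 1.87e-09), were the largest rises. The glutamate transporter gene Slc1a3 (-1.76 ± 0.12, edgeR adjusted p = 1.85e-07) and the Notch ligand Dll1 (-1.12 ± 0.15, edgeR adjusted p = 4.19e-05) were the largest falls. Dll1 was at 12 ± 0.184 CPM (fl/fl EBd2) and 5.5 ± 0.571 CPM (KO EBd2). It was lower in KO ES cells too (-0.51 ± 0.10, edgeR adjusted p = 0.0042).

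Neuronal cytoskeleton, adhesion and synapse genes were called higher in 8 of 16 cases and lower in 2 in KO EBd2. Neurofilament light, Nefl, rose most (3.62 ± 0.10, edgeR adjusted p = 2.11e-10), from 16.4 ± 1.2 CPM (fl/fl EBd2) to 200.5 ± 14.2 CPM (KO EBd2). The GABA-synthesizing enzyme Gad1 followed (2.26 ± 0.28, edgeR adjusted p = 3.1e-05), a gene that had fallen with stage in fl/fl (-2.77 ± 0.25). The synaptic vesicle gene Syp fell (-1.21 ± 0.18, edgeR adjusted p = 9.65e-05). The fall called in Tubb3 (-0.31 ± 0.10, edgeR adjusted p = 0.0175) was lost with library sizes only (adjusted p = 0.498), with lots as blocks (0.0973) and when fl/fl EBd2 lot 1 (0.0597), fl/fl EBd2 lot 12 (0.0687) or KO EBd2 lot 2 (0.175) was left out. In ES cells 9 of the 16 were higher in KO by the same test, beside 10.9% of all genes.

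Endocannabinoid genes, the setting of Cnr1, were divided as well. In KO EBd2 the degrading enzyme Mgll (2.19 ± 0.42, edgeR adjusted p = 0.000758) and the synthesizing enzyme Daglb (0.66 ± 0.15, edgeR adjusted p = 0.00292) rose, and the degrading enzyme Faah fell (-0.87 ± 0.20, edgeR adjusted p = 0.00231). Cnrip1, whose product binds the receptor's tail, was called lower from 8 against 19 reads (-1.64 ± 0.55, edgeR adjusted p = 0.0226). That call was lost by DESeq2 (adjusted p = 0.114), with lots as blocks (0.106) and when fl/fl EBd2 lot 1 (0.103) or KO EBd2 lot 2 (0.137) was left out. The other 2 genes in the model were not called.

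Close paralogs of the members were lower in KO embryoid bodies in 5 of the 6 cases that could be modelled, and 6 of 12 listed paralogs had too few reads. Of all genes, 31.5% were lower in this contrast. Bcl11b, the paralog of Bcl11a, was at 6.85 ± 1.2 CPM (fl/fl EBd2) and 3.41 ± 0.0218 CPM (KO EBd2) (-0.99 ± 0.20, edgeR adjusted p = 0.00126), after a rise of 1.30 ± 0.19 in fl/fl. Sox3 is given above. The other 3, named after their values were seen, were Msi2 (-0.81 ± 0.04), the paralog of Msi1, Sox2 (-0.60 ± 0.04), also a core pluripotency gene, and Hes1 (-0.32 ± 0.11), a relative of Hes5. Sox3, Msi2 and Hes1 also belong to the wider neural list, so the paralog count partly repeats the count of that list. The paralog not called lower was Lhx9, at 1.01 and 1.45 CPM in fl/fl and KO EBd2.

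**Figure D4:**
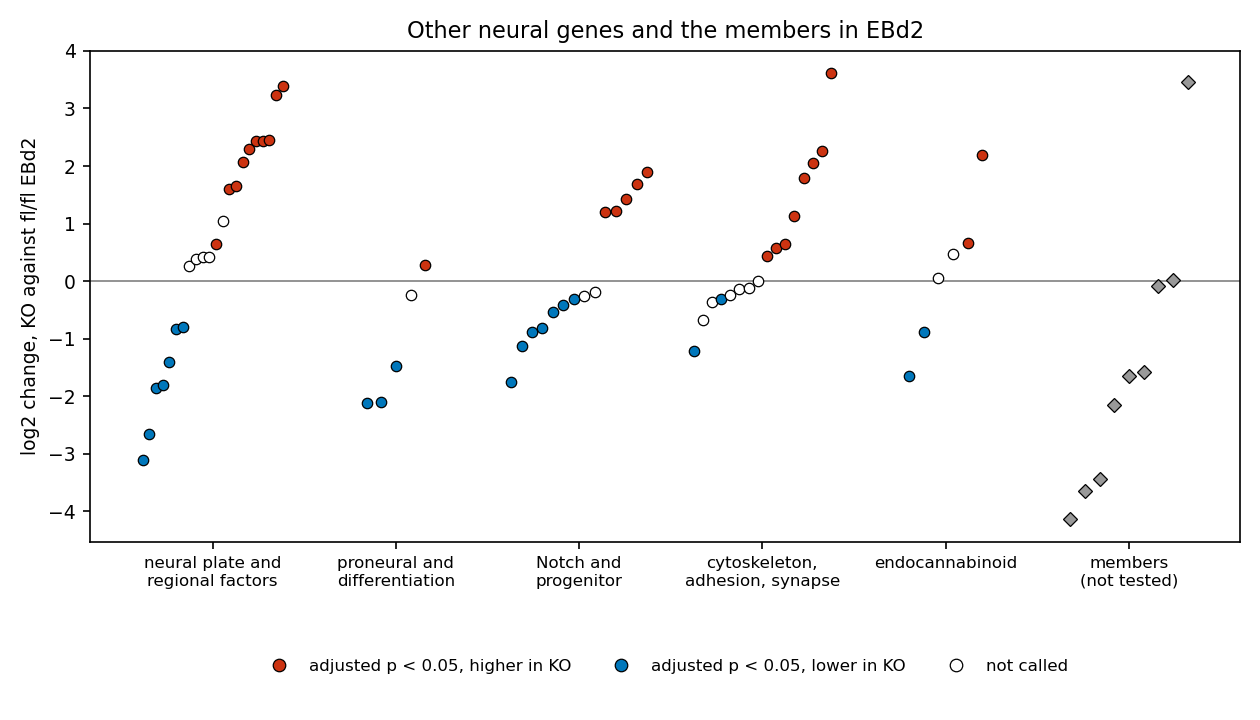
Log2 change in KO against fl/fl EBd2 for the 63 other neural genes in the model, by role group (filled red or blue where the edgeR adjusted p is under 0.05, white otherwise), and for 9 members (grey diamonds, not tested). Each role group holds genes on both sides of 0, from -3.11 for Zic5 to 3.62 for Nefl.

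The label neural-associated was set against markers. Progenitor markers were mixed: of Sox1, Pax6, Nes, Msi1, Fabp7 and Sox3, the summed level was 120.8 to 130.8 CPM (fl/fl EBd2) and 67.1 to 72.3 CPM (KO EBd2), beside 103.7 to 109.4 CPM over the ES cell libraries, and most of it came from Nes and Msi1. Sox1, Pax6, Nes and Msi1 are members themselves, so this sum is no independent check of the label. Of the markers outside the members, Sox3 was at 17 and 4.71 CPM in fl/fl and KO EBd2. Fabp7, a marker of radial glia, had 5 and 10 reads in fl/fl and KO EBd2. The neuronal marker Dcx had 3 and 5, and its 5 reads in KO EBd2 all came from lot 2. The neuron list (Tubb3, Dcx, Map2, Stmn2, Rbfox3 and Elavl4) had no gene at 0 counts over a whole group. Dcx had 0 in single libraries, KO ES lot 12 and KO EBd2 lot 1. The list summed to 99.5 to 107.5 CPM (fl/fl EBd2) and 111.3 to 123.2 CPM (KO EBd2). In ES cells, which are not neurons, it summed to 182.5 to 193.6 CPM (fl/fl) and 224.5 to 239.5 CPM (KO). Stmn2 gave much of that sum, with 151.1, 173.6, 46.6 and 63.1 CPM in fl/fl ES, KO ES, fl/fl EBd2 and KO EBd2. Fabp7 and Dcx were thus nearly absent at day 2 while Tubb3, Map2 and Stmn2 were read at both stages.

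Markers of other cell types moved with the same groups. All 10 genes of the formative and primed epiblast rose with stage in fl/fl, and 8 of 10 were lower and 1 higher in KO than in fl/fl EBd2. Of all genes, 28.9% rose with stage in fl/fl, and 31.5% were lower and 30.7% higher in KO EBd2, shares that also apply to the counts of endoderm and mesoderm genes that follow. The list holds Otx2, Zic2 and Pou3f1, whose falls in KO EBd2 were already known. The count of 8 lower was thus partly known in advance, and nothing is read from its excess over all genes. Otx2 and Zic2 are also named above for their likeness to Cnr1 and Bcl11a. The summed level ran from 547.9 to 553.3 CPM (fl/fl ES), 479 to 490.6 CPM (KO ES), 2584 to 2737 CPM (fl/fl EBd2) and 677.4 to 678.2 CPM (KO EBd2). All 8 primitive endoderm genes were higher in KO EBd2, with sums of 285.5 to 313.7 CPM (fl/fl EBd2), 938.3 to 951.6 CPM (KO EBd2) and 155.4 to 162.4 CPM (ES cell libraries). Of 7 primitive streak and mesoderm genes in the model 4 were higher in KO EBd2, where sums reached 171.3 to 176.4 CPM, against 22.4 to 23.6 CPM (fl/fl EBd2) and 17.6 to 19.9 CPM (ES cell libraries). In that list Msgn1 had 0 counts in the other 3 groups and Meox1 in fl/fl EBd2.

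Fibroblast feeder markers had 13 of 14 in the model and none at 0 counts over a whole group. Lum had 0 in single libraries, fl/fl EBd2 lot 1 and KO EBd2 lot 2. The feeder markers had summed levels of 891.7 to 943.8 CPM (fl/fl ES), 1056 to 1141 CPM (KO ES), 80 to 81.6 CPM (fl/fl EBd2) and 292.6 to 317.5 CPM (KO EBd2). In KO against fl/fl 8 of them were higher in ES cells, and 10 were higher and 1 lower in EBd2, beside 10.9% of all genes higher in ES cells and 30.7% higher and 31.5% lower in EBd2. Nes and Ncam1 were called higher in the same KO ES cell libraries. Neural crest markers summed to 18.9 to 20.6 CPM (fl/fl ES), 22.3 to 24.5 CPM (KO ES), 45.1 to 47 CPM (fl/fl EBd2) and 43.8 to 45.8 CPM (KO EBd2), with Tfap2b at 0 counts in fl/fl EBd2. In EBd2, 5 of their 7 genes in the model were higher in KO and 1 lower. Naive pluripotency genes were higher in KO than fl/fl EBd2 in 5 of 10 cases and lower in 3, and their sum was 2035 to 2073 CPM (fl/fl ES), 1712 to 1734 CPM (KO ES), 796.3 to 850.8 CPM (fl/fl EBd2) and 1020 to 1075 CPM (KO EBd2). The part of any of these cell types in the members' levels was not tested.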

How the data were processed

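The authors deposited a table of raw read counts per gene symbol for 8 libraries, all of them whole and not normalized. The tool Trim Galore 0.6.7 and the genome builds GRCm38 and mm10 appear in the submitters' processing notes, while aligner, counter, annotation and strand setting are given in none of the sources used. The members and gene lists were chosen with earlier results of these data known, and Zic2, Otx2 and Pou3f1 were kept out of the wider neural list for that reason. Genes passing filterByExpr (minimum count 10) with the 4 groups were kept, scaled by TMM and fitted in edgeR 4.0.16 (R 4.3.3) with 4 group means over all 8 libraries, so groups of 2 share one estimate of spread. Libraries of a group varied by 3.4% (common biological coefficient of variation), on 4 residual degrees of freedom. Adjusted p values are edgeR quasi-likelihood, two-sided, Benjamini-Hochberg over all 16542 genes, at 0.05. The SE of a log2 change is its size divided by the square root of its quasi-likelihood F statistic. It was thus derived from the test and not estimated apart from it. Alternatives were DESeq2 1.42.0, other scaling and filters, thinning to one depth, blocks by lot, the compared groups alone and leaving out each library. Thinning was done once, at random, so each thinned value is a single draw. A comparison within lot 1 was added after seeing the data.

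All members were named. From each role list and the paralog list, the 2 largest called rises and falls in EBd2 (at least 1 CPM in a group) were named, and for each member the 3 genes of most similar profile, of which 1 gene is not reported here. Counting intervals are exact at 95%. Libraries of one group differed by 2.1 to 2.81 in chi-square per gene, above sampling noise. Names and exon lengths came from GENCODE vM21, and promoters from RefSeq GRCm38.p6. The script was tested on simulated data.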

Additional observations from a re-analysis of the deposited data

Results flagged for a closer look

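For 18 of the named genes outside the 10, the difference between KO and fl/fl was itself different at the 2 stages, tested in edgeR as the interaction (EBd2 minus ES, log2). It was positive for Nefl (3.63), Meis2 (3.27), Gbx2 (2.5), Gad1 (2.43), Mgll (1.45), Vim (1.42) and Daglb (0.6). It was negative for Zic5 (-2.82), Elavl4 (-2.2), Cnrip1 (-1.95), Hes6 (-1.82), Slc1a3 (-1.55), Sox3 (-1.4), Syp (-1.3), Bcl11b (-1.03), Faah (-0.9), Tubb3 (-0.87) and Dll1 (-0.61). These genes were named for their change at day 2, which the interaction shares. Neurod1 and Ptprz1, named in the same way, were not called in the interaction (edgeR adjusted p = 0.177 and 0.096). Of all genes, 48% were called in it. The interaction call was lost in most alternatives for Cnrip1 (11 of 14) and Mgll (10 of 15). It was lost less often for Daglb (6 of 16), Dll1 (5 of 16) and Faah (3 of 16), and once for Bcl11b, Sox3 and Elavl4.

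Among the members, estimates had opposite signs, and the differences were not tested. Insm1 changed with stage in opposite directions in the genotypes, a difference of -3.55, and so did Lhx2, by 2.09, although the fall of Lhx2 in fl/fl turned to 0.13 after thinning. For Bcl11a the estimates differed by -4.38, but the one in ES cells, 0.25 ± 0.29, was not called (edgeR adjusted p = 0.672). For Nes they differed by -0.39, but the one in EBd2, -0.09 ± 0.07, turned to 0.14 with library sizes only.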

How the results depend on the processing

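The count of 4 members induced and lost was the same in every alternative that gave a value. Leaving out a library cannot make separate libraries overlap, and the members were chosen with this contrast in view. Nothing is read from the equal counts. With lots as the replicate block, the wider neural list had 8 genes higher and 2 lower in KO ES cells (main 14 and 4), and 0 members were lower there (main 1). After thinning, the same list had 8 and 1 in ES cells, and 12 genes that fell with stage in fl/fl (main 19). With a stricter filter, which tests fewer genes, 17 of that list were higher in KO EBd2 (main 26). Leaving out 1 library at a time gave 8 to 15 higher and 2 to 4 lower genes of the list in ES cells, 11 to 21 that fell in fl/fl, and 1 to 3 members higher and 0 to 1 lower in KO ES cells. Leaving out fl/fl ES lot 1 gave the lowest count in each ES comparison, reached also without fl/fl ES lot 2 for the 2 lower list genes and without either KO ES lot for the 0 lower members. KO ES lot 12 left out gave 9 higher. The lowest count for the fall came without fl/fl EBd2 lot 1, and 12 without lot 12. The cause was not tested.

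Values near 0 changed sign. Sox1 in ES cells was 0.0696 with library sizes only, 0.000686 with no filter, 0.21 with lots as the replicate block, 0.00297 with lot 1 against the others as the block, 0.39 after thinning and 0.0024 in the compared groups alone, and -0.10 to 0.10 with 1 library left out. Insm1 in ES cells was -0.298 to 0.0883 with 1 library left out. Nes in EBd2 was 0.14 with library sizes only, Sox1 with stage in fl/fl was 0.11 with the block, and Lhx2 with stage in fl/fl was 0.13 after thinning. With library sizes only, the median of all genes moved to 0.23 in EBd2 and 0.07 in ES cells, and calls became 7075 higher and 3345 lower in EBd2 (main 5072 and 5217) and 2819 and 1089 in ES cells (main 1806 and 2120). With the block, ES cells had 915 and 1321 calls. Groups compared share only lot 1, whose deviations correlated at -0.12 between the ES groups, -0.12 between the EBd2 groups, 0.0683 between the fl/fl stages and -0.014 between the KO stages. The pairs of groups that share both lots are not compared, and they correlated at 0.17 (KO ES cells and fl/fl EBd2) and 0.0318 (fl/fl ES cells and KO EBd2). The libraries are taken to share only a number. Groups with at most 33 reads were those of Hes5, Lhx2 in fl/fl EBd2, Sox1, Cnr1 and Insm1 in KO EBd2 and Bcl11a outside fl/fl EBd2, and depth limits these values.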
